A study of Mus musculus with 10 samples.

Results

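Sarcolemma repair genes act when the plasma membrane of a muscle fiber tears. The 10 genes described here were listed by name for their part in this repair, and the rule that lists them uses no measured value. They are the ferlins Dysf and Myof, the ubiquitin ligase Trim72, the caveola genes Cav3 and Cavin1, the annexins Anxa1, Anxa2, Anxa5 and Anxa6, and the dysferlin and annexin partner Ahnak. They are 10 of the 25700 genes in the count files, and all 10 passed the filter on low counts. RNA was measured in the tibialis anterior (TA) muscle of 10 male C57BL/6 mice aged 12 weeks, on day 6 after injection of cardiotoxin (CTX), a snake toxin that destroys muscle fibers and is followed by regeneration. The 5 control mice carried Pax7Cre, labelled as genotype wild type, and the other 5 were titled miR-501KO, with genotype miR-501 -/- in the sample labels and Pax7Cre miR-501 fl/Y in the series description. The series title calls the controls littermates, and both groups carried the Cre driver by that description. Cre expressed from Pax7 acts in the myogenic lineage, so the immune, vascular and connective tissue cells of the same muscle keep the gene under that design. Mir501 is not among the counted genes, and its deletion was therefore not checked in these data.

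Membrane repair begins with calcium entering through the tear. Calcium brings dysferlin vesicles, TRIM72 (MG53) and annexins to the wound, where they form a cap and a patch that reseal the membrane, while caveolae, small flask-shaped pits made of caveolins and cavins, supply membrane and hold dysferlin and TRIM72 at the surface. Loss of DYSF or CAV3 function causes muscular dystrophy in patients, and in regenerating muscle annexins are also made in quantity by macrophages and fibroblasts. A change in a bulk sample can come from fewer cells of a type or from less RNA per cell, and these cannot be told apart in the values that follow.

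The sequence deleted in the mutant mice gives miR-501-3p, a miRNA of 22 bases on chrX:7241270-7241291, minus strand, of build GRCm38.p6. It is shown because a pair of the repair genes hold a match to its seed. The seed, bases 2 to 8 from the 5′ end, is in capitals, beside the same seed in miR-500-3p, both from RefSeq.
miR-501-3p: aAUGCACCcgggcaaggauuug
miR-500-3p: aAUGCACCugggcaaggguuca

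The 3′ untranslated regions (UTRs) of GENCODE release M21 on GRCm38 were searched for GGTGCATA (8mer), GGTGCAT (7mer-m8), GTGCATA (7mer-A1) and GTGCAT (6mer), on the transcribed strand. An 8mer or 7mer-m8 match was present in 2 of the 10 repair genes, beside 1052 of 13989 tested genes with an annotated 3′ UTR (7.52%). Myof holds an 8mer within chr19:37899330-37899359, minus strand. The GTGCAT in it begins at base 382 of 3 annotated 3′ UTRs of 419, 501 and 693 bases. Trim72 holds a 7mer-m8 within chr7:128010935-128010964, plus strand, and the GTGCAT in it begins at base 486 of a 3′ UTR of 572 bases. The match is in capitals within 30 bases of the reference.
Myof: taagaagatagGGTGCATAgttagagcagt
Trim72: agagggtgctgGGTGCATggctataatccc

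Depth and composition were those of the whole series. Between 18609222 and 24753258 reads were counted per mouse, and no library was a copy of another of its genotype (counts of every pair differed by a chi-square of 9.46 or more per degree of freedom). Levels are given as CPM, counts divided by library size after TMM scaling, which is edgeR's correction for a few abundant genes taking a varying share of reads. Muscle markers were present in every library, and the summed level of 18 mature fiber markers ran from 20700 to 54900 CPM in Pax7Cre and from 30100 to 41000 CPM in miR-501KO mice. The highest sum was that of Pax7Cre mouse 2. In edgeR's quasi-likelihood test 0 of 14410 genes differed between the genotypes at an adjusted p under 0.05 (Benjamini-Hochberg over all genes), 151 had an unadjusted p under 0.05, and DESeq2 gave 0 and 150.

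None of the 10 repair genes passed the test between miR-501KO and Pax7Cre mice. In edgeR's test 0 of 10 passed an adjusted p under 0.05, beside 0.0% of all genes tested, and 0 of 10 had an unadjusted p under 0.05, beside 1.05%. The miR-501KO mean was the higher of the pair for 8 genes and the lower for 2, with a median log2 fold change of 0.10 over the 10 genes and −0.0042 over all genes. Without Pax7Cre mouse 2 the median of the 10 genes was 0.04. Of all genes tested 47.9% were higher in miR-501KO mice. The 95% intervals of the 10 genes together reach from 0.806-fold to 1.40-fold, so that a change outside this range lay outside the interval of every repair gene. No repair gene had genotypes that did not overlap, beside 0.139% of all genes tested.

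**Figure D1:**
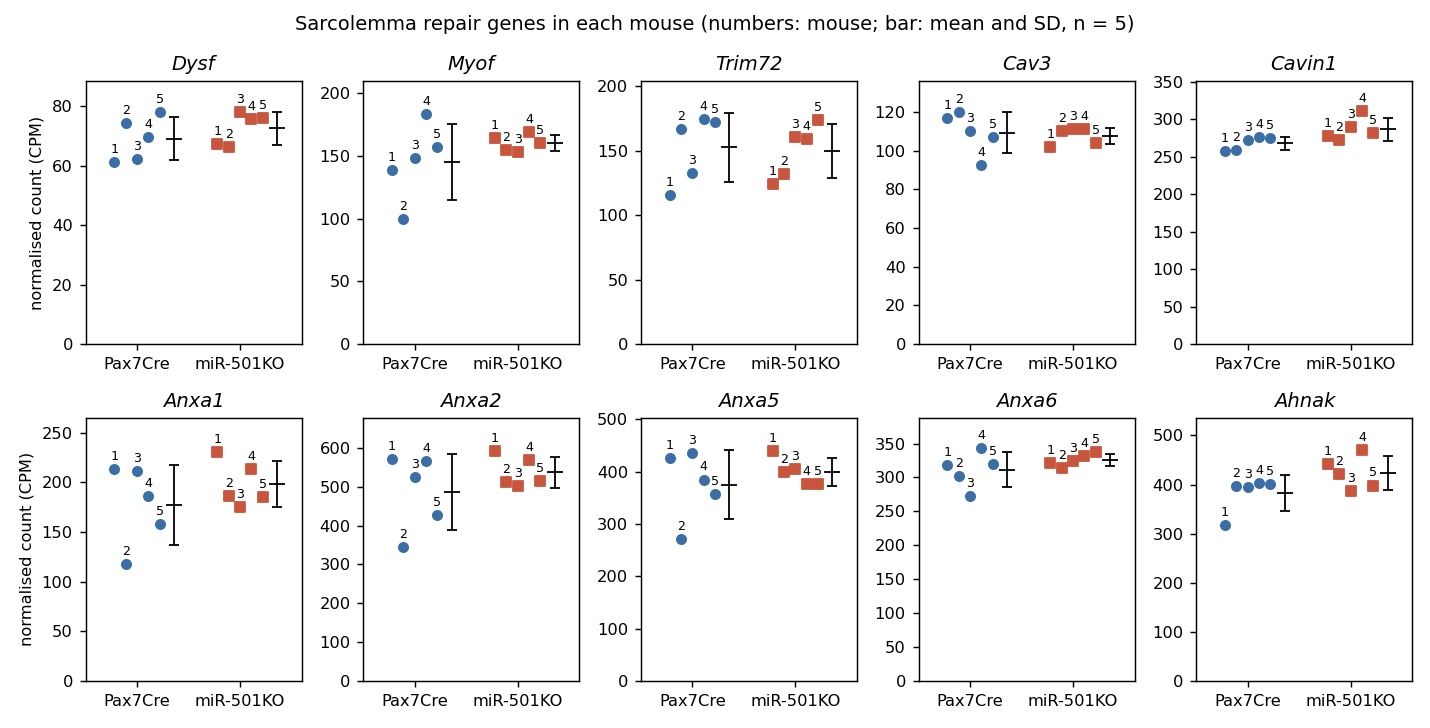
Normalised count (CPM, linear axis from 0) of each of the 10 repair genes in each of the 10 mice, with mouse numbers, and the mean and SD of each genotype (n = 5). Circles are Pax7Cre and squares are miR-501KO mice, and they overlap in every panel; Pax7Cre mouse 2 is the lowest point for Myof, Anxa1, Anxa2 and Anxa5.

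Dysf encodes dysferlin, the calcium-sensing ferlin of mature fibers. It had 61.3, 74.4, 62.2, 69.6 and 77.9 CPM in Pax7Cre mice 1 to 5, and 67.2, 66.1, 78.0, 75.8 and 75.9 CPM in miR-501KO mice 1 to 5. The genotypes overlapped, with Pax7Cre mice 1 and 3 below every miR-501KO mouse and the highest mice of the genotypes nearly level. The means were 69.1 ± 7.32 and 72.6 ± 5.53 CPM (SD, n = 5 each), which is 0.07 on the log2 scale (standard error 0.0862, 95% interval −0.12 to 0.26, edgeR adjusted p = 1.00). Dysf lies on chr6:84008590-84211060, plus strand, of GRCm38, and 105 and 352 of its 8328 exon bases lie opposite exons of the antisense genes Gm33024 and Gm15475. Neither antisense gene is in the count files, and the strand setting of the counting is not given in the sources used here.

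Myof encodes myoferlin, the ferlin of myoblasts and newly formed fibers, which also works in membrane repair of other cells. Its levels were 139, 99.5, 148, 183 and 157 CPM in Pax7Cre mice 1 to 5, and 164, 155, 153, 169 and 160 CPM in miR-501KO mice 1 to 5. Pax7Cre mouse 2 was the lowest and Pax7Cre mouse 4 the highest of all 10 mice, and all 5 miR-501KO mice lay between them. The log2 fold change was 0.14 (standard error 0.129, 95% interval −0.14 to 0.42, edgeR adjusted p = 1.00) from means of 145 ± 30.4 and 160 ± 6.43 CPM (SD, n = 5 each). Myof, on chr19:37899036-38043577, minus strand, is the repair gene with the 8mer shown above. The upper bound of its interval was 1.34-fold. Leaving out Pax7Cre mouse 2 moved the log2 fold change to 0.03 and leaving out Pax7Cre mouse 4 moved it to 0.24, with an adjusted p above 0.05 in either case.

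Trim72 encodes MG53, a muscle-restricted ligase that oligomerises at the tear on oxidation. Its levels were 116, 167, 133, 175 and 172 CPM in Pax7Cre mice 1 to 5, and 124, 132, 161, 159 and 174 CPM in miR-501KO mice 1 to 5. Each genotype held a pair of mice at 133 CPM or below and 3 mice at 159 CPM or above, so the groups overlapped over almost their whole range. Trim72, with the 7mer-m8 match, differed by −0.02 on the log2 scale (standard error 0.132, 95% interval −0.31 to 0.26, edgeR adjusted p = 1.00) from means of 153 ± 26.4 and 150 ± 21.4 CPM (SD, n = 5 each). It lies on chr7:128003949-128011033, plus strand, and 617 of its 2233 exon bases lie opposite exons of the antisense gene Gm15533, which is not in the count files. The sign of its difference changed when any of 5 mice was left out.

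Across all genes, the median log2 fold change was −0.0104 over the 1052 tested genes with an 8mer or 7mer-m8, −0.0021 over the 246 with an 8mer and −0.0027 over the 9635 with no 6mer. The share of repair genes with a match, 2 of 10, is a count of few genes. Among the other repair genes a match was found in Cast, which encodes the calpain inhibitor calpastatin (8mer, log2 fold change 0.03, standard error 0.0962), Cavin3 (7mer-m8, 0.08, standard error 0.0752) and Capn3, a muscle calpain (7mer-m8, 0.07, standard error 0.0986). No gene of these 5 had an unadjusted p under 0.05.

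Cav3 encodes the muscle caveolin, and Cavin1 the coat protein without which caveolae do not form. Cav3 had 117, 120, 110, 92.6 and 107 CPM in Pax7Cre mice 1 to 5, and 102, 110, 111, 111 and 104 CPM in miR-501KO mice 1 to 5. All 5 mutant mice lay inside the control range, which ran from mouse 4 at the bottom to mouse 2 at the top, the reverse of their order for Myof. Cav3, on chr6:112459505-112472872, plus strand, had means of 109 ± 10.7 and 107 ± 4.14 CPM (SD, n = 5 each), a difference of −0.02 on the log2 scale (standard error 0.0791, 95% interval −0.20 to 0.15, edgeR adjusted p = 1.00). The sign of the Cav3 difference changed without Pax7Cre mouse 1 or mouse 2.

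Cavin1 had the narrowest spread of the 10 genes in Pax7Cre mice, with a coefficient of variation (CV, the SD as a share of the mean) of 3.33%. Its levels were 258, 259, 272, 276 and 275 CPM in Pax7Cre mice 1 to 5, and 278, 273, 290, 311 and 282 CPM in miR-501KO mice 1 to 5. Every mutant mouse but mouse 2 lay above all 5 control mice. An exact two-sided permutation test on these CPM values gave p = 0.0238 for Cavin1 (n = 5 each), where the smallest p that 5 mice against 5 allow is 0.00794, and it was the 1 gene of the 10 with an exact p under 0.05, beside 1.51% of all genes tested. In edgeR's test Cavin1 was 0.10 higher on the log2 scale in mutant mice (standard error 0.0733, 95% interval −0.06 to 0.26, unadjusted p = 0.196, adjusted p = 1.00), or 1.07-fold. The difference of its means, 268 ± 8.91 and 287 ± 14.9 CPM (SD, n = 5 each), was therefore not past the threshold of the test across all genes. Cavin1 lies on chr11:100956733-100970887, minus strand.

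Annexins are calcium-dependent membrane-binding proteins that accumulate at the tear in order, and Anxa1, Anxa2 and Anxa5 are also abundant in macrophages and fibroblasts. Anxa2 had 571, 344, 525, 566 and 427 CPM in Pax7Cre mice 1 to 5, and 593, 512, 502, 568 and 516 CPM in miR-501KO mice 1 to 5. Control mice 2 and 5 lay below every mutant mouse, and the other 3 control mice lay among them. Anxa2, on chr9:69453620-69491795, plus strand, was 0.15 higher in mutant mice on the log2 scale (standard error 0.137, 95% interval −0.15 to 0.44, edgeR adjusted p = 1.00; 0.04 without Pax7Cre mouse 2) from means of 487 ± 98.6 and 538 ± 39.8 CPM (SD, n = 5 each). Of its 3731 exon bases 98 lie opposite the antisense gene Gm16144, which is not in the count files.

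Anxa1, a substrate of several kinases, is also known for its action on leukocytes. Its levels were 213, 118, 211, 186 and 158 CPM in Pax7Cre mice 1 to 5, and 231, 186, 175, 213 and 185 CPM in miR-501KO mice 1 to 5. Mice 2 and 5 were again the lowest control mice and lay below every mutant mouse. The log2 fold change of Anxa1 was the highest of the 10 genes, 0.16 (standard error 0.149, 95% interval −0.17 to 0.48, edgeR adjusted p = 1.00), and so was its upper bound of 1.40-fold, from means of 177 ± 40.0 and 198 ± 23.3 CPM (SD, n = 5 each). Without Pax7Cre mouse 2 the log2 fold change of Anxa1 was 0.04, below that of Ahnak (0.16). Anxa1 lies on chr19:20373428-20390944, minus strand.

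Anxa5, which forms arrays on exposed phosphatidylserine, had 426, 272, 435, 385 and 358 CPM in Pax7Cre mice 1 to 5, and 440, 400, 405, 376 and 376 CPM in miR-501KO mice 1 to 5. Here too mouse 2 and mouse 5 were below every mutant mouse. Its log2 fold change of 0.09 (standard error 0.122, 95% interval −0.17 to 0.36, edgeR adjusted p = 1.00) became −0.01 without Pax7Cre mouse 2. Anxa6, which takes part in forming the repair cap, had 318, 302, 273, 343 and 320 CPM in Pax7Cre mice 1 to 5, and 322, 314, 324, 332 and 338 CPM in miR-501KO mice 1 to 5. Its mutant mice fell within a CV of 2.83% and all lay inside the control range, and its log2 fold change was 0.07 (standard error 0.0817, 95% interval −0.11 to 0.25, edgeR adjusted p = 1.00). Anxa5 lies on chr3:36448923-36475894 and Anxa6 on chr11:54979108-55033445, both on the minus strand.

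Ahnak encodes a very large scaffold protein that binds dysferlin and the complex of annexin A2 with S100A10. Its levels were 318, 397, 395, 403 and 402 CPM in Pax7Cre mice 1 to 5, and 441, 422, 386, 471 and 398 CPM in miR-501KO mice 1 to 5. The 4 other control mice lay within a few CPM of each other, mouse 1 lay well below them, and 3 mutant mice lay above all 5 controls. Ahnak, on chr19:8989284-9076914, plus strand, had means of 383 ± 36.5 and 424 ± 34.0 CPM (SD, n = 5 each), 0.15 apart on the log2 scale (standard error 0.0962, 95% interval −0.06 to 0.35, edgeR adjusted p = 1.00) and an exact two-sided permutation p of 0.103. Without Pax7Cre mouse 1 the log2 fold change of Ahnak was 0.09.

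**Figure D2:**
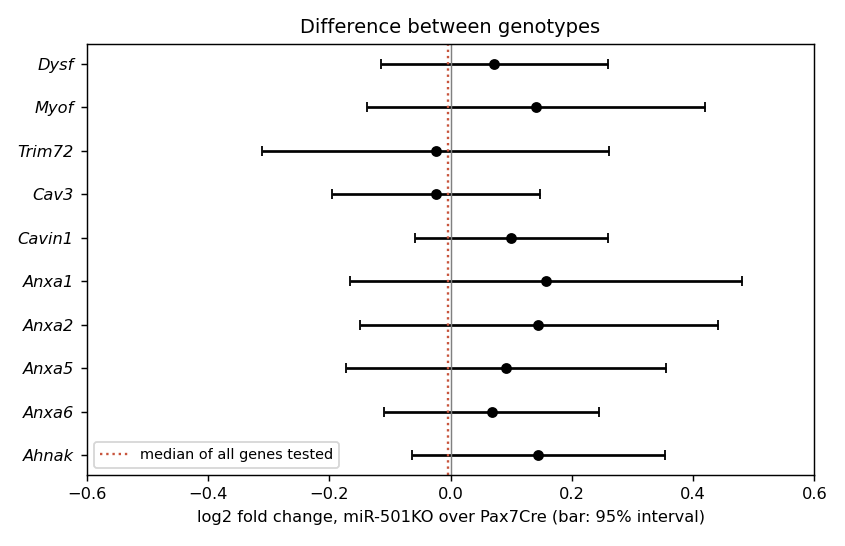
Log2 fold change of miR-501KO over Pax7Cre mice for each repair gene (point) with its 95% interval from edgeR's fit (bar), beside 0 (solid line) and the median of all genes tested (dotted line). Every interval holds 0, and the widest is that of Anxa1, from −0.17 to 0.48.

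Per length of exon, Anxa5, Anxa2 and Anxa6 stood at the top of the list, Anxa1 was seventh and the ferlins stood at the bottom. On the scale of CPM per kb of merged exon, averaged over all 10 mice, Anxa5 was at 218 ± 27.5 and Anxa2 at 137 ± 20.4 (SD, n = 10). Anxa6, Cav3 and Cavin1 followed at 109 ± 6.83, 93.6 ± 6.67 and 77.4 ± 4.29, and Trim72 and Anxa1 at 67.8 ± 10.2 and 64.4 ± 11.2. Ahnak was at 20.2 ± 1.98, Myof at 12.1 ± 1.76 and Dysf at 8.50 ± 0.768 CPM per kb. Ranges over mice overlapped for each pair of neighbours in this order except Anxa1 with Ahnak and Ahnak with Myof. Anxa5 was above Anxa2 and Cav3 above Cavin1 within each of the 10 mice, while Trim72 was above Anxa1 in 5 of them. The exon lengths behind this scale run from 1157 bases for Cav3 to 19938 for Ahnak, and a level per merged exon length understates a gene whose short transcripts are the ones in use.

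**Figure D3:**
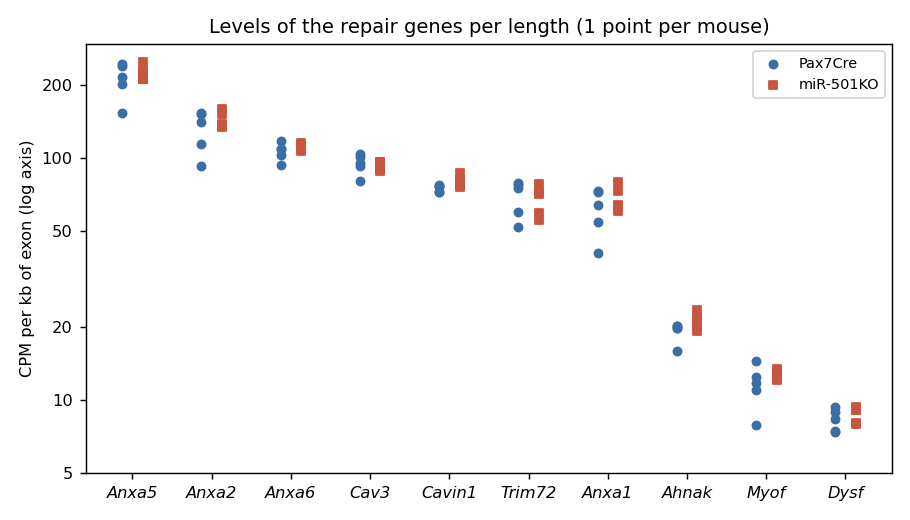
Level of each repair gene in each mouse as CPM per kb of merged exon (log axis), ordered by the mean over all 10 mice, with circles for Pax7Cre and squares for miR-501KO mice. Anxa5 leads at 218 and Dysf is lowest at 8.50 CPM per kb, and a gap separates Anxa1 from Ahnak.

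Myof stood above Dysf per kb in 9 of 10 mice. The ratio of their levels per kb averaged 1.44 and ran from 0.883 to 1.74, with 1.40 ± 0.325 in Pax7Cre and 1.47 ± 0.127 in miR-501KO mice (SD, n = 5 each). The ratio below 1 was that of Pax7Cre mouse 2, where Myof was lowest of all mice while Dysf was not. The ratio of Anxa2 to Anxa1 per kb was steadier, 2.15 on average and between 1.94 and 2.38.

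Variation among mice was larger in the control group. The CV was larger in Pax7Cre than in miR-501KO mice for 9 of the 10 repair genes, Cavin1 being the exception, but it was also larger for 79.5% of all genes tested, whose median CV was 14.9% in Pax7Cre and 9.26% in miR-501KO mice. Myof had CVs of 20.9% and 4.01%, Anxa1 22.6% and 11.8%, and Anxa2 20.3% and 7.39%. Trim72 varied almost equally, with 17.3% and 14.3%. Pax7Cre mouse 2 was the lowest of all 10 mice for Myof, Anxa1, Anxa2 and Anxa5 and the highest for Cav3. Pax7Cre mouse 4 was the highest for Myof, Trim72 and Anxa6 and the lowest for Cav3.

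These same mice stood at the ends of the mature fiber score. The score of a mouse is the mean over the 18 mature fiber markers of log2 CPM, each marker centred on its mean over mice, and it was 0.81 in Pax7Cre mouse 2, −0.68 in Pax7Cre mouse 4 and between −0.13 and 0.39 in miR-501KO mice. Some other scores built in the same way also had these mice at an end. Pax7Cre mouse 2 was the lowest of all mice on the regenerating fiber (−0.45), macrophage (−0.21), tendon (−0.61) and smooth muscle and pericyte (−0.14) scores. It was the highest on the endothelial score (0.25). Pax7Cre mouse 4 was the highest on the regenerating fiber score (0.28) and the lowest on the endothelial score (−0.23). Neither mouse stood at an end of the satellite cell, fibroblast or adipocyte score. Each gene was fitted with genotype and the score in edgeR, and the slope is the log2 change per SD of the score (0.399 over all 10 mice). A score was scaled anew in each fit that left out a mouse, so those slopes are per SD over the mice kept. Myof fell by 0.18 per SD (standard error 0.0447, edgeR adjusted p = 0.0155), Anxa5 fell by 0.16 (standard error 0.0437, edgeR adjusted p = 0.0277) and Anxa2 fell by 0.17 (standard error 0.0503, edgeR adjusted p = 0.0347). These are 3 of 10 repair genes with a falling slope, beside 6.22% of all genes tested, and 0 of 10 with a rising slope, beside 11.1%.

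The slope of Anxa1 was as steep, −0.18 per SD, but did not pass the threshold (standard error 0.0607, edgeR adjusted p = 0.0699). Cav3 had a slope of 0.08 (standard error 0.0338, edgeR adjusted p = 0.147), Dysf of 0.06 and Trim72 of 0.05. Cavin1, Anxa6 and Ahnak had slopes between −0.02 and 0.01. The calls depend on single libraries. Without Pax7Cre mouse 2, 0 of 10 repair genes had a slope past the threshold, and of all genes tested 60 rose and 2 fell. The slopes of Myof, Anxa2, Anxa5 and Anxa1 were then −0.06, −0.06, −0.05 and −0.02 per SD over the mice kept. This unit differs from that of all 10 mice, so the sizes are not directly comparable. Without Pax7Cre mouse 4 the calls were those of Anxa1 and Anxa5, beside 1242 rising and 604 falling of 14487 genes. Myof and Anxa2 then had edgeR adjusted p-values of 0.0928 and 0.0750. Anxa2 missed the threshold without miR-501KO mouse 1 (edgeR adjusted p = 0.0570), and Anxa5 missed it without miR-501KO mouse 4 (edgeR adjusted p = 0.0508), where Anxa1 passed (0.0364). The TMM factor was 0.884 in Pax7Cre mouse 2 and 1.13 in Pax7Cre mouse 4, beside 0.942 to 1.02 in the other mice, and the part of this factor and of the other scores in these slopes was not tested.

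**Figure D4:**
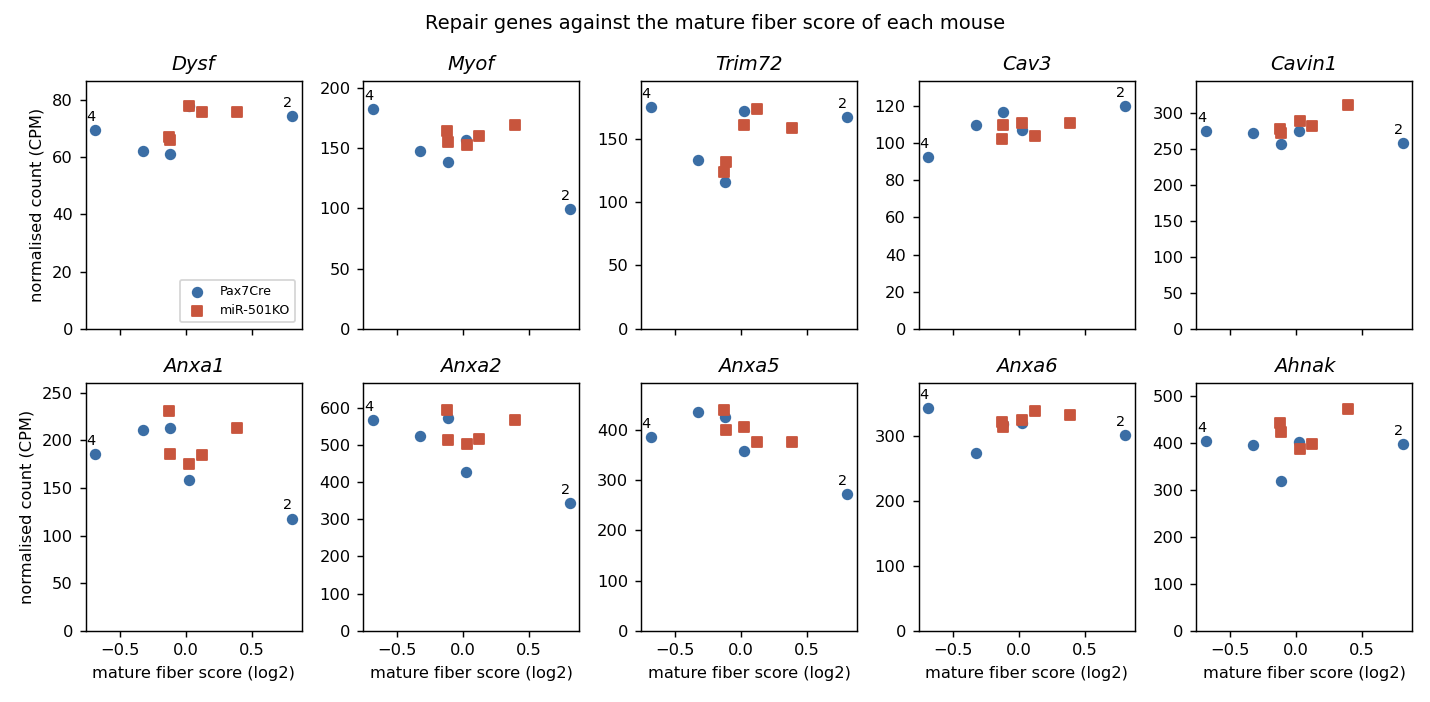
Normalised count (CPM, linear axis from 0) of each repair gene against the mature fiber score of the mouse (mean centred log2 CPM of 18 markers), 1 point per mouse, with Pax7Cre mice 2 and 4 numbered. Pax7Cre mouse 2, at a score of 0.81, is the lowest point for Myof, Anxa1, Anxa2 and Anxa5 and the highest for Cav3.

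Annexins are also macrophage and fibroblast genes, so the same fit was made with scores of those cells. The summed level of 15 macrophage markers ran from 5690 to 8230 CPM in Pax7Cre and from 6200 to 7300 CPM in miR-501KO mice (exact two-sided permutation p = 0.944, n = 5 each), and none of the markers was at 0 in all mice. The sum of 10 fibroblast markers ran from 22600 to 33000 and from 26300 to 31900 CPM (exact two-sided permutation p = 0.865, n = 5 each). For the summed levels of all 9 marker lists, which also cover regenerating fibers, satellite cells, endothelium, smooth muscle and pericytes, tendon and adipocytes, the exact two-sided permutation p ran from 0.238 to 0.984 between genotypes. On the macrophage score 0 of 10 repair genes had a slope past the threshold, beside 0.00694% of all genes tested. The steepest was that of Anxa2, 0.17 per SD (standard error 0.0543, edgeR unadjusted p = 0.0105, adjusted p = 0.142). It passed with an edgeR adjusted p of 0.0401 when Pax7Cre mouse 3 was left out. Without Pax7Cre mouse 2 it was 0.09 per SD over the mice kept (edgeR adjusted p = 0.632). The background share moved with single libraries too, to 254 genes rising and 402 falling of 14506 without Pax7Cre mouse 3, and to 544 rising and 1070 falling of 14490 without Pax7Cre mouse 1, where 0 of the 10 repair genes passed. Of the 48 other repair genes 0 had a slope on this score with all mice. Without Pax7Cre mouse 1 S100a11 rose and Ano5, Cav2 and Cavin2 fell, and without Pax7Cre mouse 3 S100a11 rose and Ano5 and Pacsin3 fell, all named after their values were seen. With all mice the next steepest slope on the macrophage score was that of Anxa1, 0.15 (edgeR adjusted p = 0.258). Without Pax7Cre mouse 2 the slope of Anxa1 was 0.05 per SD over the mice kept. On the fibroblast score 0 of 10 passed, beside 0.0% of all genes tested, with slopes from −0.05 for Anxa6 to 0.05 for Anxa5.

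**Figure D5:**
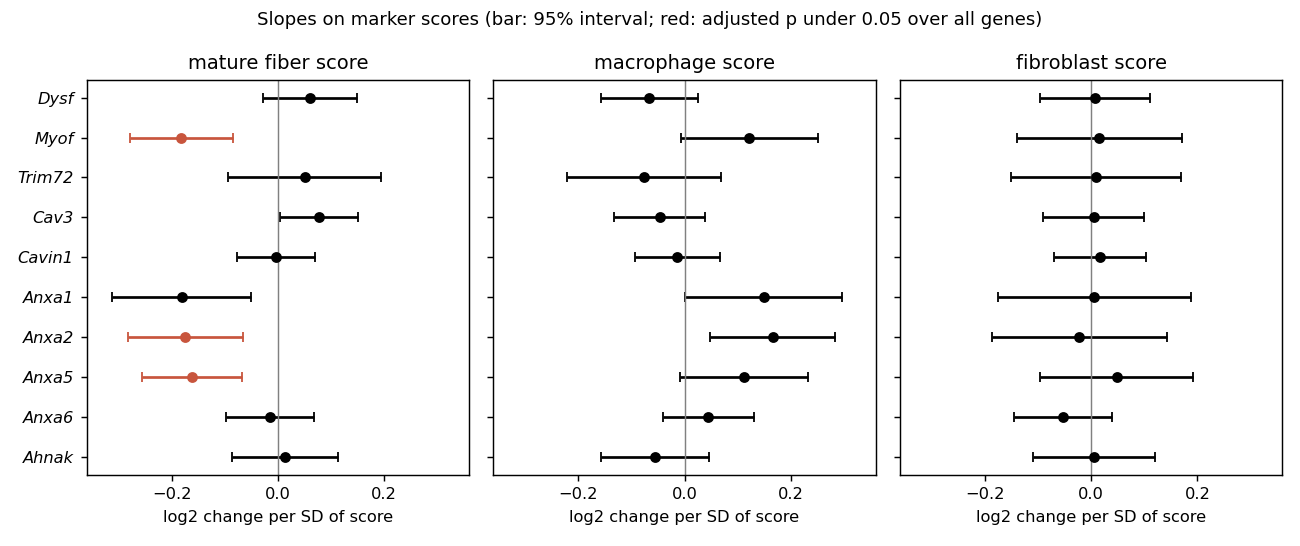
Slope of each repair gene (log2 change per SD of the score, point) with its 95% interval (bar) on the mature fiber, macrophage and fibroblast scores, from fits with genotype over 10 mice. Red marks an adjusted p under 0.05 over all genes: Myof, Anxa2 and Anxa5 on the mature fiber score, and no gene on the others.

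With the mature fiber score in the model the genotype difference of Myof was 0.22 on the log2 scale (edgeR unadjusted p = 0.0215) and that of Anxa2 was also 0.22 (edgeR unadjusted p = 0.0385). These are 2 of 10 repair genes with an unadjusted p under 0.05, beside 3.4% of all genes in that fit and 1.05% in the fit without the score. Neither passed an adjusted p under 0.05 (adjusted p = 1.00 for each). The fit with the score was not rerun without single mice, and the slopes of both genes on the score missed the threshold without Pax7Cre mouse 2. In the fit without the score, leaving out that mouse gave 0.03 for Myof and 0.04 for Anxa2.

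The promoters of Cav3 and Anxa2 are shown because these genes lay at opposite ends in Pax7Cre mouse 2. They are 300 bases from RefSeq on GRCm38.p6, 250 before to 50 after the annotated start, and capitals mark 4 motifs found on either strand with no overlap between matches. They are CANNTG, the E-box core read by myogenic factors, the TATA box letters TATAAA, the GC box letters GGGCGG and the AP-1 core TGANTCA. The Cav3 promoter, chr6:112459255-112459554 on the plus strand, holds CANNTG at −174 and −106 from the start. The Anxa2 promoter, chr9:69453433-69453732 on the plus strand, holds GGGCGG at −190, −48 and −24, TGANTCA at −95 and TATAAA at −17, and no CANNTG.
Cav3: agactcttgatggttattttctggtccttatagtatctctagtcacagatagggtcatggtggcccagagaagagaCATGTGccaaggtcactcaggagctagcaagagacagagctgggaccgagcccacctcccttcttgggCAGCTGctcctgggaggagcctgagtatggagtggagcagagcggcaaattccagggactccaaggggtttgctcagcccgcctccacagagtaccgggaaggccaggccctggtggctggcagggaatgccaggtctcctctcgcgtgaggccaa
Anxa2: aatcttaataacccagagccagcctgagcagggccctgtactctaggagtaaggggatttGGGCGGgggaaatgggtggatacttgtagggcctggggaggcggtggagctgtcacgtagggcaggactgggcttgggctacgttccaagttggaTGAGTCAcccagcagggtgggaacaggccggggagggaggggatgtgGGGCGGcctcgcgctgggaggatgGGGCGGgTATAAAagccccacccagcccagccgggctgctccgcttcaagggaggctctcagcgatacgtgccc

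Of 32851 RefSeq promoters of the same length, 72.3% hold a CANNTG, 35.7% a GGGCGG, 13.6% a TATAAA and 7.81% a TGANTCA, each counted as at least 1 match. Trim72 holds CANNTG at −239, −102 and −31, and Anxa1 holds TATAAA at −32 and CANNTG at 10. Anxa5, which like Anxa2 was lowest in Pax7Cre mouse 2, holds CANNTG at −208, and the Myof promoter holds none of these 4 motifs. These letters are a description of the reference sequence, and nothing in these counts measures binding to them.

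Other genes of membrane repair were read from the same fit. Of 53 such genes, 52 are in the count files and 48 passed the filter, and 0 of 48 differed between the genotypes at an adjusted or an unadjusted p under 0.05, beside 0.0% and 1.05% of all genes tested. Their median log2 fold change was 0.02, with 30 higher and 18 lower in miR-501KO mice, beside 47.9% of all genes higher. The S100 proteins that bind annexins were higher in 4 of 4 genes (median 0.12), led by S100a10, the partner of annexin A2, at 155 ± 27.0 and 174 ± 21.5 CPM (SD, n = 5 each; log2 fold change 0.16, standard error 0.124, edgeR adjusted p = 1.00). The calpain group, which holds proteases that act at the wound, their small subunit Capns1 and their inhibitor Cast, was higher in 5 of 5 genes (median 0.07), with the protease gene Capn2 at 0.09. None of these genes passed the test, so the counts describe means only.

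In the remaining groups the members with the largest differences were Fer1l6 among ferlins (0.24, standard error 0.301), Anxa9 among annexins (−0.21, standard error 0.152), Cavin3 among caveola genes (0.08, standard error 0.0752) and Chmp4c among ESCRT genes, which pinch off damaged membrane (−0.34, standard error 0.438). Vamp7, a vesicle SNARE of lysosome exocytosis, had −0.20 (standard error 0.137) and Sntb1, a syntrophin, −0.09 (standard error 0.098). In these groups 1 of 1 ferlin, 4 of 6 annexins, 6 of 10 caveola genes and 5 of 10 ESCRT genes were higher in miR-501KO mice. So were 2 of 7 exocytosis genes and 3 of 5 other partners of dysferlin and the patch. The ferlins Fer1l4, Fer1l5 and Otof and the annexin Anxa10 did not pass the filter.

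On the mature fiber score 7 of these 48 genes rose and 1 fell, beside 11.1% and 6.22% of all genes tested. The lowest adjusted p among the rising genes was that of Ano5, a membrane protein of muscle whose loss also causes a limb girdle dystrophy (0.22 per SD, standard error 0.0352, edgeR adjusted p = 0.000865). S100a11, an annexin-binding protein, fell by 0.24 per SD (standard error 0.0392, edgeR adjusted p = 0.00144). Without Pax7Cre mouse 4, 4 rose and 2 fell, beside 1242 rising and 604 falling of 14487 genes. Without miR-501KO mouse 4, 4 rose and 2 fell, beside 1257 rising and 641 falling of 14514. Without Pax7Cre mouse 2, 0 of 48 rose and 0 fell, beside 60 rising and 2 falling of 14510 genes. The slopes were then 0.16 for Ano5 and −0.15 for S100a11 per SD over the mice kept. In size they are not directly comparable with the slopes over all mice. Ano5 and S100a11 were named after their values were seen.

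For each repair gene the genes with the nearest pattern over the 10 mice were found by Pearson's r of log2 CPM, as a description in which all points share the same libraries. The nearest to Dysf were Zdhhc5 (r = 0.950) and Lamb2 (0.947), and to Myof Dpysl3 (r = 0.979) and Iqgap1 (0.970). Anxa5 lay nearest to C1qtnf3 (r = 0.989) and Ndc80 (0.985), Anxa2 to Cavin3 (r = 0.977) and Brca1 (0.961), and Anxa1 to Trim59 (r = 0.970) and Cct2 (0.960). Trim72 lay nearest to Casz1 (r = 0.977) and Sik2 (0.972), Cav3 to the mitochondrial ribosomal genes Mrps16 (r = 0.971) and Mrpl27 (0.967), and Anxa6 to Rbm22 (r = 0.986) and Rin3 (0.961). The likeness was weakest for Cavin1, with Zfp619 (r = 0.887) and Gm38228 (0.881), and for Ahnak, with Tssk4 (r = 0.923) and D630003M21Rik (0.896). The search covered only genes outside the list of 10.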

How the data were processed

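RNA from 10 TA muscles was sequenced from stranded mRNA libraries as single-end reads. The authors aligned reads with STAR to GRCm38.p5 and counted them per gene with featureCounts in R 3.5.1, per the labels and processing notes, and deposited raw counts per gene and mouse without normalization. Identifiers were matched to GENCODE release M21 (25664 of 25700). The analysis used R 4.3.3 with edgeR 4.0.16 and TMM scaling. The filter filterByExpr (minimum count 10, minimum total count 15) left 14410 genes, and the quasi-likelihood test in its legacy form compared the genotypes, with Benjamini-Hochberg adjustment over all genes tested. Intervals are Wald intervals from that fit. The biological coefficient of variation was 0.149. Counts of 1177 to 14810 per repair gene and mouse leave little counting error. Marker scores used a prior count of 2. The steps were tested on simulated data.

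Named genes are the 10 repair genes, the largest change in each other group and the 2 nearest genes. Cast and Capn3 are named for a seed match, and Ano5, S100a11, Cav2, Cavin2 and Pacsin3 after their values were seen. Members and lists were chosen with earlier results of these data known. Alternatives were DESeq2 1.42.0, its size factors, other filters, a replicate block, a fiber score covariate, edgeR's newer test and leaving out each mouse. Each sample is a separate mouse by its label, and no batch is named.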

Additional observations from a re-analysis of the deposited data

Results flagged for a closer look

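Ahnak in Pax7Cre mice was flagged because the value of mouse 1, 318 CPM, lay far from those of the other 4 mice, which ran from 395 to 403 CPM. The gap to the nearest of them was 0.905 of the whole range, above the critical value of 0.71 for 5 samples. The 10 repair genes in 2 genotypes gave 20 groups to search, and chance flags about 1 in 20 of them. Without this mouse the log2 fold change of Ahnak was 0.09, against 0.15 with all mice, and this was the lowest value over all mice left out in turn (0.09 to 0.18).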

How the results depend on the processing

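The count of repair genes called between genotypes was 0 under every alternative run, and so was that of the other repair genes and of all genes. The number of genes with an unadjusted p under 0.05 ran from 98 to 470 when mice were left out in turn. Without Pax7Cre mouse 2 the sign reversed for Trim72 (0.008 on the log2 scale), Cav3 (0.01) and Anxa5 (−0.008). Trim72 also reversed without Pax7Cre mouse 4 (0.029), Pax7Cre mouse 5 (0.022), miR-501KO mouse 1 (0.037) and miR-501KO mouse 2 (0.02), and Cav3 without Pax7Cre mouse 1 (0.003). None of these values passed the test, and the cause was not tested. Over all mice left out in turn the ranges were −0.109 to 0.037 for Trim72, −0.077 to 0.01 for Cav3 and −0.008 to 0.149 for Anxa5. They were 0.032 to 0.119 for Dysf, 0.029 to 0.237 for Myof, 0.07 to 0.117 for Cavin1, 0.039 to 0.232 for Anxa1, 0.041 to 0.21 for Anxa2, 0.025 to 0.105 for Anxa6 and 0.085 to 0.176 for Ahnak. The count of repair genes with a slope on the mature fiber score ran from 0 to 3 over mice left out in turn and was 1 with a replicate block, that of Myof (edgeR adjusted p = 0.0208), while Anxa2 and Anxa5 had 0.118 and 0.0914. Of the 48 other repair genes 3 rose and 2 fell on that score with the block, beside 1554 rising and 821 falling of 14410 genes. With no filter 4 of 51 rose and 1 fell, beside 1453 rising and 860 falling of 19854. The count on the macrophage score ran from 0 to 1, the 1 being found without Pax7Cre mouse 3, and that on the fibroblast score was 0 throughout. The sample titles number the mice and name no pairs. Deviations of equal numbers correlated between −0.305 and 0.337, a check that cannot settle whether the numbers pair the samples. With the replicate block 189 genes had an unadjusted p under 0.05 and 0 an adjusted one. With 5 mice a group and a median standard error of 0.109 over the repair genes, a change inside the interval given for a gene is not excluded.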
